A study of Mus musculus with 18 samples.

Results

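The distal end of mouse chromosome 2 holds a cluster of repeated zinc finger genes, and its genes were followed here in the cerebellum of mice with and without a human ataxin-1 transgene. Cluster genes were taken as every row of the expression table whose position starts in a set window of chromosome 2 (mm10) and whose value was above 0 in at least 1 library. This selected 21 of the 20175 genes above 0 anywhere, in a table of 22783 genes. The members were thus chosen on position and on being detected at all, so their detection is no result. At the edge of that choice, Gm14308 was kept with a highest value of 0.00511 FPKM, and Gm14431, Gm14434 and Gm4724 were left out because they were at 0 in every library. By position, Gm14393 (from 175061549) and Zfp931 (from 178066878) were the outermost members, and Edn3 (from 174760758) and Phactr3 (from 178118975) were the first genes outside.

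RNA was measured by sequencing in 18 libraries from the cerebellum of FVB mice, 3 in each of 6 groups. The transgenic groups were ATXN1[30Q]D776/Cck-/- mice at 5, 12 and 28 weeks of age, and the groups they were set against were Cck-/- mice of the same ages. Both genotypes are labelled as lacking Cck, which encodes the neuropeptide cholecystokinin, and no group labelled as having an intact Cck gene was compared. The transgene encodes human ataxin-1, the protein of spinocerebellar ataxia type 1, carrying an aspartate at a regulatory phosphorylation site, and in published work on this line it is driven by the Purkinje cell promoter of Pcp2. Whether the 3 libraries of each group represent different mice is not recorded in the labels, and p-values measure the spread between libraries, which may be technical. Since whole cerebellum was used, fewer cells of a type and less RNA per cell cannot be told apart.

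Genes of this kind encode proteins with tandem C2H2 zinc fingers, each finger reading a few bases of DNA, and many carry a KRAB domain that recruits the corepressor Trim28 and the histone methyltransferase Setdb1. In mice they are known above all for silencing transposable elements, and they lie in clusters that grew by repeated duplication, so that neighbours are often near copies of each other. Because of that likeness, short reads can fit several of them, and values of single genes depend on how the authors' software shared such reads out.

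The likeness was seen in the sequences themselves. Of the 21 cluster genes, 15 matched a RefSeq gene by symbol and 5 by an older name, and OTTMUSG00000016609 was not matched. The older names Gm14306 and Gm14436 both belong to 1 RefSeq gene, Zfp973, while 0610010B08Rik is Gm2026, Gm14420 is Zfp970 and Etohi1 is Zfp971. The 20 matched names thus stood for 19 RefSeq genes, of which 17 had a promoter sequence in RefSeq (GRCm38.p6), taken from 250 bases before to 50 bases after the start. Across the 136 pairs of these promoters, identity ranged from 49.2% to 100% with a median of 80.2%. The promoters of Gm14308 and Gm2026 were identical, those of Gm14305 and Zfp931 were 95.1% identical although other members lie between them, and those of Gm14325 and Zfp971 were 95.4% identical. The following 5 promoters are shown because their genes stand for the patterns below (Gm14295 and Gm14305 lower in transgenic mice at week 5, Zfp931 lower at week 28, Gm14325 and Gm14326 higher with age), with the 40 bases that all 5 share in capitals.
Gm14295 (chr2:176798350-176798649, plus strand): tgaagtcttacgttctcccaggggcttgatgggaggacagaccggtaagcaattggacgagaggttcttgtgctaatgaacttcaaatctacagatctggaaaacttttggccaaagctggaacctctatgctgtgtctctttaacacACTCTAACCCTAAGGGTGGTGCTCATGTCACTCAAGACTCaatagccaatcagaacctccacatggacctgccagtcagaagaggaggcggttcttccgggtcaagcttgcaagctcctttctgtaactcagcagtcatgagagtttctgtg
Gm14305 (chr2:176708103-176708402, plus strand): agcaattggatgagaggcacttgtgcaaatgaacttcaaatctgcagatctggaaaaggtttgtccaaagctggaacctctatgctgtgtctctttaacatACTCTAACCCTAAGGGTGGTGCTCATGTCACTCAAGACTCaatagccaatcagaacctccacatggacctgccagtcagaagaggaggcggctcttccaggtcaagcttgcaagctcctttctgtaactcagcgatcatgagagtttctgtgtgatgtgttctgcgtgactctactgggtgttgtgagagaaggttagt
Zfp931 (chr2:178078376-178078675, minus strand): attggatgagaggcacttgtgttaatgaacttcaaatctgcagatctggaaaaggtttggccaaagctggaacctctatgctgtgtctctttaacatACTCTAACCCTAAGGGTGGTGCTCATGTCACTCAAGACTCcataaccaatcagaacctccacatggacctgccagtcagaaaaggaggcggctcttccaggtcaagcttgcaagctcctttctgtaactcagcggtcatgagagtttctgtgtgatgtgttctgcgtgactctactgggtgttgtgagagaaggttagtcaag
Gm14325 (chr2:177840287-177840586, minus strand): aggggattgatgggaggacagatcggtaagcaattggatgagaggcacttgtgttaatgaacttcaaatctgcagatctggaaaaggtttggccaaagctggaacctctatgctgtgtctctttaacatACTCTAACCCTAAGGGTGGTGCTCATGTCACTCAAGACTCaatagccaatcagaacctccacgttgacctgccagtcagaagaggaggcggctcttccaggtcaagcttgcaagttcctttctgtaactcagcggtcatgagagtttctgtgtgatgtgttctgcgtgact
Gm14326 (chr2:177957239-177957538, minus strand): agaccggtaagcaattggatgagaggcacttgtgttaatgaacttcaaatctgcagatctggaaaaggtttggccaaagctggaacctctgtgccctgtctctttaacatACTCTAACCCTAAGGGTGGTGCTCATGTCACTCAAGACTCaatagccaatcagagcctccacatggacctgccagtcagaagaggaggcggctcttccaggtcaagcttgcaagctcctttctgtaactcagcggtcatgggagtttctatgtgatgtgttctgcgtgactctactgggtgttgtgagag
The 40 bases, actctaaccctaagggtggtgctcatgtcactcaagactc, were found in 16 of the 17 member promoters and, searched on both strands, in 0 of 32798 RefSeq promoters outside the cluster and 0.0974% of all promoters. Their last 17 bases, catgtcactcaagactc, were in all 17 member promoters, in 33 of the 53 promoters inside the cluster's borders, in 1 promoter elsewhere (0.00305%) and in 0.103% of all promoters. The shorter run lies within the longer one, and both were found as the longest runs common to the member promoters or to the 5 shown, so that their presence there describes the likeness of the copies and names no factor.

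The transcripts also shared sequence. For each of the 14 cluster genes that could be tested, the share of 50-base stretches of its GENCODE M21 transcripts that also occur in transcripts of another gene ranged from 23.3% for Zfp931 to 98.4% for 0610010B08Rik, and it was over 80% in 8 of the 14. Gm14295 stood at 74.8%, Gm14305 at 88.9%, Gm14326 at 85.4% and Gm14325 at 82.2%, whereas Gm14403 (36.1%), Gm14420 (49.5%) and Etohi1 (51.1%) had more sequence of their own. Sharing was uneven between pairs: 70.4% of the stretches of Gm14325 were also in Gm14326, and 81.6% of those of Gm14305 were also in Gm2026, but 44.2% of those of Gm14305 were in Gm14295. Translated in 3 frames, the transcripts of Gm14327 held no match to the C2H2 zinc finger spacing. Those of the other tested genes held between 3 matches in Gm14393 and 25 in Gm14295. Gm14326 had 15, and Gm14305, Gm14325 and Gm14420 had 14 each. RefSeq lists Gm14403 as a long noncoding RNA and Gm14327 as a transcribed pseudogene, and the other tested genes as protein coding. GENCODE M21 differs here and lists both Gm14403 and Gm14327 as protein coding.

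**Figure D1:**
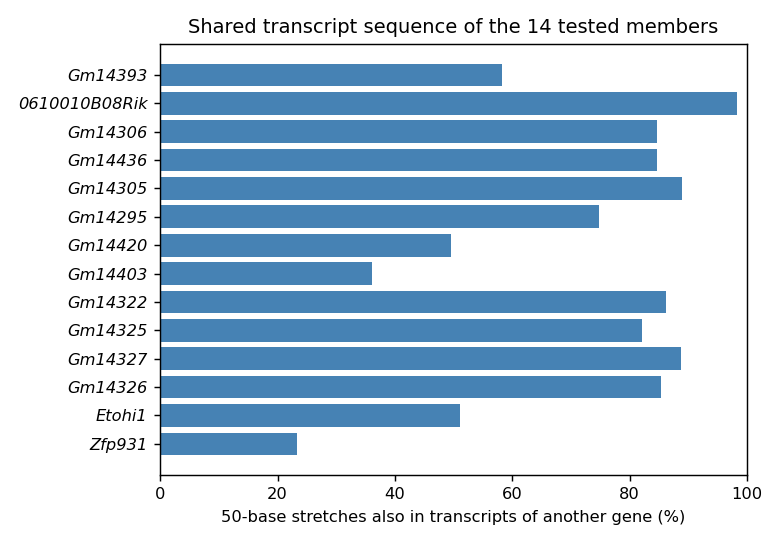
Share of 50-base stretches of each tested cluster gene's transcripts (horizontal axis, percent) that also occur in transcripts of another gene, with genes in order of position from top to bottom. Bars run from 23.3% in Zfp931 to 98.4% in 0610010B08Rik; Gm14306 and Gm14436 share 1 bar length (84.7%) because both are names of Zfp973.

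Positions were uncertain as well. In the table, 7 members share 1 locus (175185165 to 175338212) and Gm14306 and Gm14436 share another (175470025 to 175483322), whereas RefSeq places Zfp973 at 176670522 to 176681090. The table's locus overlapped the RefSeq position in 13 of the 20 matched members and did not in 7. Values that the authors' files assign to members of a shared locus are therefore uncertain as values of single genes.

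The libraries differed in ways that bear on the results below. Summed over all genes, FPKM (fragments per kilobase of transcript scaled to the mapped fragments of a library) ran from 389248 to 441509 per library, 12767 to 13323 genes reached 1 FPKM, and relative depth, read from the steps of low values, spanned 0.798 to 1.65 times that of the first Cck-/- library of week 5. The 5 choroid plexus markers (Ttr, Kl, Folr1, Clic6 and Kcnj13) were low in 3 libraries, replicates 1 and 2 of transgenic week 5 and replicate 3 of transgenic week 28, with mean log2 values of 1.78, 1.56 and 2.06, against 4.0 to 5.72 in the others. Replicates 1 of transgenic week 5, 2 of transgenic week 12 and 1 of transgenic week 28 held both Xist and Y-linked transcripts above 1 FPKM, although Xist marks females and the Y-linked genes males. Cck itself read 81 to 112 FPKM in transgenic libraries of week 5, against 17.1 to 25.8 FPKM in Cck-/- libraries of that age, and was at most 17.1 FPKM in all libraries of weeks 12 and 28, and FPKM per gene cannot show whether such reads lie outside a deleted part. The 5 Purkinje cell markers (Pcp2, Calb1, Car8, Itpr1 and Pvalb) and the 5 granule cell markers were high in all libraries, with Purkinje cell sums of 979.6 to 2851 FPKM, and the 5 forebrain markers summed to at most 5.64 FPKM, so the libraries carried the markers of their labelled tissue.

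Of the 21 cluster genes, 14 reached 1 FPKM in at least 3 libraries and were tested, and 7 were not: Gm14288, Gm14308, Gm14391, Gm14405, Gm14440, Gm6710 and OTTMUSG00000016609, none of which passed 0.0978 FPKM in any library. A gene counted as changed where limma's moderated test on log2(FPKM + 1), two-sided and adjusted by Benjamini and Hochberg over 13487 genes, gave an adjusted p under 0.05, and log2 fold changes are on that scale, which understates changes of low genes. Gm14295 was the most abundant member, with a mean of 92.5 FPKM over the 18 libraries, followed by Etohi1 at 24.6 FPKM, Gm14326 at 15.6 FPKM, Gm14325 at 12.7 FPKM, Gm14436 at 11.6 FPKM and Gm14420 at 11 FPKM. In that order, each gene from Etohi1 on overlapped the next across libraries, whereas Gm14295 (55.5 to 132 FPKM) stood clear of Etohi1 (19.1 to 31.7 FPKM). The least abundant tested members were 0610010B08Rik at 1.58 FPKM and Gm14393 at 1.43 FPKM.

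At 5 weeks, part of the cluster read lower in transgenic cerebellum. Gm14295, Gm14436, Gm14305 and Gm14306 fell to between 0.383 and 0.633 times their Cck-/- means, and no member rose. These 4 of 14 tested members stood against 4.37% of all tested genes called lower in that comparison. Across the 14, the median log2 fold change was -0.20 and 12 were below 0, against a median of 0.000336 over all tested genes.

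Gm14295, with the most zinc finger matches of the cluster, read 57.5, 55.5 and 62.1 FPKM in the transgenic libraries of week 5, against 97.7, 87.8 and 91.3 FPKM in the Cck-/- libraries. All 3 transgenic values lay below all 3 Cck-/- values, with a gap wider than either group's range. Its log2 fold change was -0.65 ± 0.10 (SE; limma, adjusted p = 0.00095). This gene's call was lost without the 3 libraries low in choroid plexus genes (log2 fold change -0.56, adjusted p = 0.0712), which leaves transgenic week 5 with 1 library that is assumed to vary like the other groups. No other call at week 5 was lost under any alternative tried, including without the 3 libraries that held both Xist and Y-linked transcripts.

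Gm14436, 1 of the 2 names that RefSeq joins as Zfp973, read 6.83, 6.37 and 6.40 FPKM in transgenic libraries of week 5, against 11.8, 11.9 and 12.5 FPKM in Cck-/- libraries. The 2 groups were far apart, each within a narrow range, and the log2 fold change was -0.79 ± 0.06 (SE; limma, adjusted p = 2.1e-06). Gm14306, the other name of Zfp973, read 0.985, 0.818 and 0.807 FPKM in transgenic libraries, against 1.84, 2.36 and 2.61 FPKM in Cck-/- libraries. Every transgenic value was under 1 FPKM and every Cck-/- value over it, and the log2 fold change was -0.80 ± 0.09 (SE; limma, adjusted p = 0.00013). Since both names may draw on the same reads, they do not count as independent genes.

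Gm14305, a zinc finger gene whose transcripts are largely contained in those of Gm2026, read 4.42, 4.0 and 4.05 FPKM in transgenic libraries of week 5, against 7.68, 6.94 and 7.23 FPKM in Cck-/- libraries. The groups did not overlap, and the log2 fold change was -0.68 ± 0.06 (SE; limma, adjusted p = 1.1e-05). Its near copy 0610010B08Rik (Gm2026) read 1.21, 1.02 and 1.04 FPKM in transgenic libraries, against 1.35, 1.31 and 1.39 FPKM in Cck-/- libraries. Those values did not overlap either, but the log2 fold change of -0.17 did not pass (limma, adjusted p = 0.11).

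**Figure D2:**
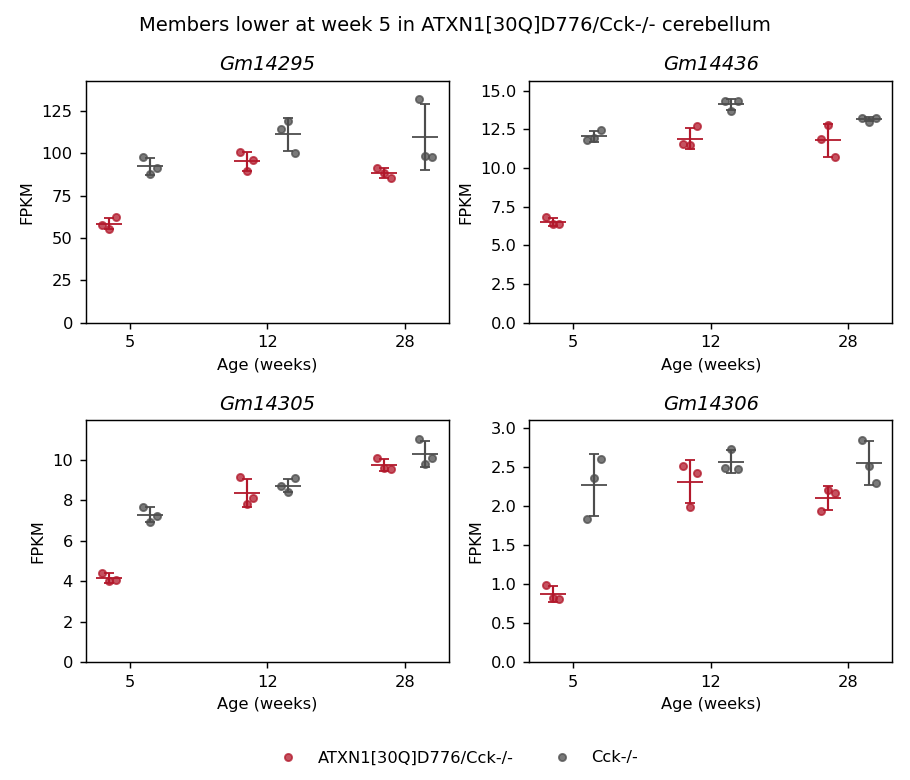
FPKM of Gm14295, Gm14436, Gm14305 and Gm14306 (vertical axes, from 0) in each library by age in weeks, with ATXN1[30Q]D776/Cck-/- libraries in red on the left and Cck-/- libraries in grey on the right of each age; lines are the mean and SD of 3 libraries. At week 5 the transgenic libraries of Gm14436 sit between 6.37 and 6.83 FPKM, and by week 12 between 11.5 and 12.7 FPKM.

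These 4 names correspond to 3 genes that lie next to each other by their RefSeq positions. Zfp973 (176670522 to 176681090), Gm14305 (176708353 to 176721813) and Gm14295 (176798179 to 176814092) span 143571 bases on chromosome 2 in GRCm38.p6, in which RefSeq lists 1 further gene, the pseudogene Gm14390. By the loci given with the expression values they are not all neighbours. Those loci place Gm14306 and Gm14436 at 175470025 to 175483322, with the untested member Gm14405 between them and Gm14305. At the lower end of the cluster, Gm14393 read 0.621 times its Cck-/- mean at week 5, within the range of the 4 called names. Its groups overlapped and it was not called (log2 fold change -0.35 ± 0.14, SE; limma, adjusted p = 0.15). Of the 8 tested members at higher positions, from Gm14420 to Zfp931, 0 were called lower at week 5. This grouping by position was noticed after the values were seen and has no test. Of those 8, Etohi1 was nearest to a call without passing, with a log2 fold change of -0.22 ± 0.07 (SE; limma, adjusted p = 0.076) and no overlap between the groups. Gm14325 had a log2 fold change of 0.01 ± 0.04 and Zfp931 of -0.02 ± 0.09 (SE). Gm14327, a transcribed pseudogene in RefSeq, had a low mean in transgenic libraries of week 5 (5.14 ± 0.82 FPKM, against 6.98 ± 0.13 FPKM in Cck-/- libraries, SD, n = 3 each). Its log2 fold change of -0.39 did not pass (limma, adjusted p = 0.15).

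Genes on both sides of the cluster were also read at week 5. Of the 14 tested genes in the flank below it and the 11 in the flank above it, 0 changed. Their median log2 fold changes were 0.03 and 0.04. The nearest genes with a test were Slmo2 and Edn3 below and Phactr3 and Ppp1r3d above, and none of them passed, while Zfp831 and Sycp2 were too low to test. In the window of another zinc finger cluster, on chromosome 4, 1 of 15 tested genes was lower, and in a window on chromosome 13 with a further cluster 4 of 43 tested genes were lower and 4 were higher. Over all tested genes, 4.37% were lower and 3.30% were higher, and of the 43 genes on chromosome 13 a larger share than that was called in each direction. Not all of these have a zinc finger name: the higher ones were 2010111I01Rik, Aaed1, Ercc6l2 and Zfp58. The lower ones were Gm10767, Ptdss1, Zfp429 and Zfp738. Among 325 tested genes outside all these windows whose symbols start with Zfp, Zkscan or Zscan, 8 were lower and 14 were higher.

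Marker sums of other cells differed between the genotypes at week 5 as well. Summed oligodendrocyte markers were 3572 to 3703 FPKM in transgenic libraries, against 4465 to 5454 FPKM in Cck-/- libraries, and haemoglobin and other blood markers were 306 to 424 FPKM in transgenic libraries, against 559 to 899 FPKM in Cck-/- libraries. Choroid plexus markers ran from 21.9 to 2754 FPKM in transgenic libraries, against 1619 to 2203 FPKM in Cck-/- libraries. Purkinje cell markers summed to 2212 to 2446 FPKM in transgenic libraries, against 2521 to 2601 FPKM in Cck-/- libraries, and granule cell markers overlapped between the genotypes (1047 to 1254 FPKM in transgenic and 1178 to 1210 FPKM in Cck-/- libraries). Astrocyte and Bergmann glia markers summed to 647.6 to 694.3 FPKM in transgenic libraries, against 741.4 to 795.8 FPKM in Cck-/- libraries. Whether these differences in marker levels had a part in the lower zinc finger transcripts was not tested. In transgenic replicate 3, whose choroid plexus markers were not low, Gm14295, Gm14436, Gm14305 and Gm14306 read 62.1, 6.40, 4.05 and 0.807 FPKM, each below all Cck-/- libraries of that age.

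By 12 weeks the gap had narrowed. No cluster gene passed at that age (0 of 14, against 1.36% of all tested genes called in either direction), although 4 members had an unadjusted p under 0.05. Gm14436 came nearest: it read 11.5, 11.5 and 12.7 FPKM in transgenic libraries, against 14.3, 13.7 and 14.3 FPKM in Cck-/- libraries. The groups still did not overlap, with a log2 fold change of -0.23 ± 0.06 (SE; limma, adjusted p = 0.055). It passed without transgenic week 12 replicate 3 (limma, adjusted p = 0.0296) and without the 3 libraries low in choroid plexus genes (adjusted p = 0.0281), and did not pass in the other alternatives (adjusted p 0.0507 to 0.318). Gm14295 read 101, 89.2 and 95.9 FPKM in transgenic libraries, against 114, 119 and 100 FPKM in Cck-/- libraries, which overlapped.

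The narrowing itself was tested as a difference between the genotype effects of the 2 ages. It passed for Gm14306 (0.69 ± 0.13 on the log2 scale, SE; limma, adjusted p = 0.024), Gm14305 (0.63 ± 0.09, adjusted p = 0.0032) and Gm14436 (0.56 ± 0.08, adjusted p = 0.0037). These 3 of 14 members stood against 0.452% of all tested genes called higher in that comparison. Gm14295 had a value of 0.43 ± 0.14 and did not pass (adjusted p = 0.19). The call of Gm14306 was lost on leaving out any 1 of 7 of the 12 libraries: Cck-/- week 5 replicate 2 or 3, Cck-/- week 12 replicate 1 or 3, transgenic week 5 replicate 2 or 3, or transgenic week 12 replicate 3 (adjusted p 0.0503 to 0.0709).

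In transgenic cerebellum, 6 of 14 members were higher at week 12 than at week 5, against 0.593% of all tested genes called higher, and all 14 log2 fold changes were above 0 with a median of 0.36. Gm14305 read 9.15, 7.81 and 8.13 FPKM at week 12, against 4.42, 4.0 and 4.05 FPKM at week 5 (log2 fold change 0.86 ± 0.06, SE; limma, adjusted p = 3.2e-06). Gm14436 rose by 0.77 ± 0.06 (adjusted p = 3.2e-06), Gm14306 by 0.82 ± 0.09 (adjusted p = 0.00023) and Gm14295 by 0.70 ± 0.10 (adjusted p = 0.0020). The other 2 were 0610010B08Rik, which rose by 0.37 ± 0.06 (adjusted p = 0.0077), and Gm14326, which rose by 0.35 ± 0.07 (adjusted p = 0.024). Without the 3 libraries low in choroid plexus genes, the calls of Gm14295, 0610010B08Rik and Gm14326 were lost (adjusted p = 0.18, 0.099 and 0.054). The call of Gm14326 was also lost without transgenic week 5 replicate 2 or 3 or week 12 replicate 1 or 3 (adjusted p 0.0528 to 0.0771). Oligodendrocyte markers summed to 2213 to 2652 FPKM in transgenic libraries of week 12, against 3572 to 3703 FPKM in those of week 5, and their part in the rise was not tested.

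In Cck-/- cerebellum, 5 of 14 members rose from week 5 to week 12, against 5.29% of all tested genes called higher, and again all 14 log2 fold changes were above 0, with a median of 0.25. They were Gm14420 (0.28), Etohi1 (0.27), Gm14326 (0.27), Gm14305 (0.23) and Gm14436 (0.21), with adjusted p between 0.018 and 0.028 in limma. Gm14305 read 8.70, 8.42 and 9.08 FPKM at week 12, against 7.68, 6.94 and 7.23 FPKM at week 5, without overlap. None of the 5 calls held on leaving out each library in turn: 0 of 14 members passed without Cck-/- week 5 replicate 2, 1 without week 12 replicate 1, 2 without week 5 replicate 1 or week 12 replicate 3, and 3 without week 5 replicate 3 or week 12 replicate 2. Between these groups several marker sums did not overlap, and their part in the rise was not tested. Oligodendrocyte markers were 1998 to 2367 FPKM in Cck-/- libraries of week 12, against 4465 to 5454 FPKM in those of week 5. Choroid plexus markers were 631.6 to 1179 FPKM at week 12, against 1619 to 2203 FPKM at week 5, and blood markers 252 to 450 FPKM at week 12, against 559 to 899 FPKM at week 5. Astrocyte and Bergmann glia markers were 654.1 to 691.7 FPKM at week 12, against 741.4 to 795.8 FPKM at week 5, while Purkinje cell markers were the higher at week 12 (2619 to 2764 FPKM, against 2521 to 2601 FPKM at week 5). The week 5 libraries are shared between this age comparison and the genotype comparison at week 5, so the 2 are not independent.

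**Figure D3:**
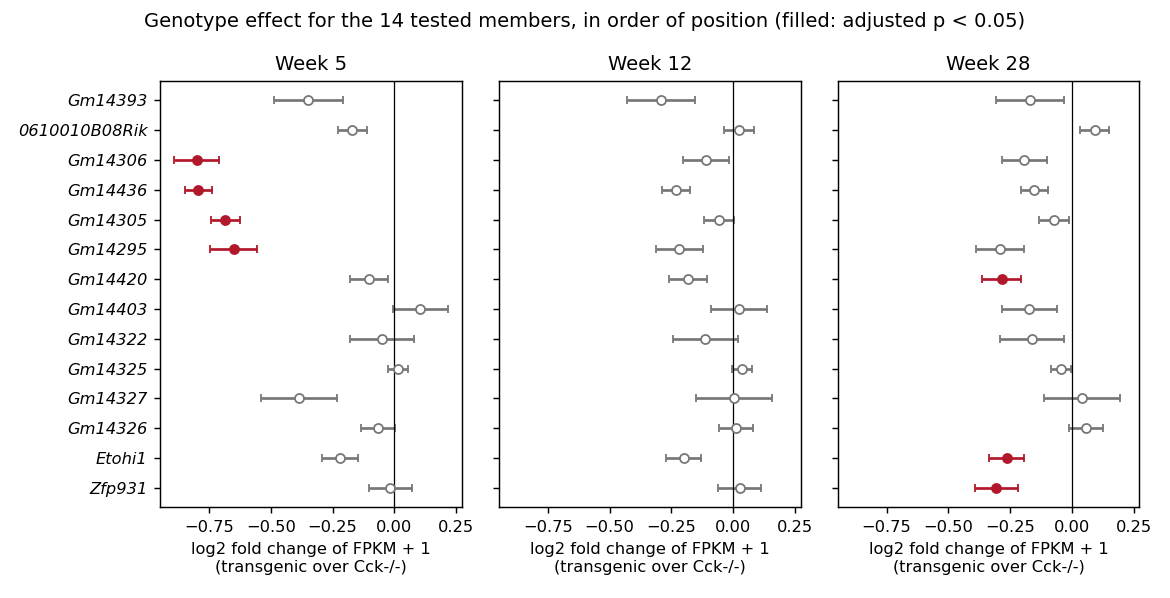
Genotype effect of the 14 tested cluster genes at weeks 5, 12 and 28 as log2 fold change of FPKM + 1, transgenic over Cck-/- (horizontal axes), with genes in order of their table position from top to bottom; points are estimates from limma, bars are ± 1 SE, and filled red points have an adjusted p under 0.05. Gm14306, Gm14436, Gm14305 and Gm14295 lie between -0.80 and -0.65 at week 5, and no gene is filled at week 12.

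At 28 weeks other members were called lower. Etohi1 (Zfp971), Gm14420 (Zfp970) and Zfp931, all zinc finger genes from positions beyond Gm14295, fell in transgenic cerebellum to 0.825, 0.808 and 0.777 times their Cck-/- means. These 3 of 14 members stood against 6.13% of all tested genes called lower, and none rose. The median log2 fold change of the 14 was -0.17, and 11 were below 0. Gm14295 and Gm14306, which were called at week 5, read 0.807 and 0.824 times their Cck-/- means here but were not called.

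Etohi1 read 24.1, 23.5 and 22.4 FPKM in transgenic libraries of week 28, against 31.7, 26.2 and 26.9 FPKM in Cck-/- libraries, without overlap (log2 fold change -0.26 ± 0.07, SE; limma, adjusted p = 0.028). Gm14420 read 11.4, 9.86 and 9.92 FPKM in transgenic libraries, against 12.6, 12.2 and 13.7 FPKM in Cck-/- libraries, again without overlap (log2 fold change -0.28 ± 0.08; adjusted p = 0.029). Zfp931, the member with the most sequence of its own, read 4.01, 4.27 and 4.80 FPKM in transgenic libraries, against 5.70, 5.73 and 5.41 FPKM in Cck-/- libraries (log2 fold change -0.31 ± 0.09; adjusted p = 0.037). Its transgenic values lay below all Cck-/- values at this age, whereas at weeks 5 and 12 the 2 groups overlapped.

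These 3 calls were near the threshold. On leaving out any 1 library of week 28, 1 or 2 members of the cluster passed, and without transgenic replicate 2 none of these 3 did. None passed in a fit of the week 28 libraries alone (adjusted p = 0.15 for Etohi1, 0.11 for Gm14420 and 0.085 for Zfp931). Etohi1 was lost without Cck-/- replicate 1 (adjusted p = 0.078), the highest library, or any transgenic replicate (0.0602 to 0.0874). Gm14420 was lost without Cck-/- replicate 3 (0.10) or transgenic replicate 2 (0.13) or 3 (0.066), and Zfp931 without any Cck-/- replicate (0.0616 to 0.116) or transgenic replicate 1 (0.16) or 2 (0.13). At this age Purkinje cell markers summed to 979.6 to 1922 FPKM in transgenic libraries, against 2653 to 2851 FPKM in Cck-/- libraries. Oligodendrocyte markers were 2542 to 2949 FPKM in transgenic libraries, against 1785 to 2345 FPKM in Cck-/- libraries. Microglia markers were 73.18 to 105.4 FPKM in transgenic libraries, against 45.77 to 70 FPKM in Cck-/- libraries. The part of these markers in the lower values was not tested. In the flank below the cluster, 2 of 14 tested genes were lower at week 28, the near neighbour Slmo2 (-0.18 ± 0.05, SE; limma, adjusted p = 0.023) and Atp5e (-0.36 ± 0.09, adjusted p = 0.024), and in the flank above 0 of 11 changed.

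**Figure D4:**
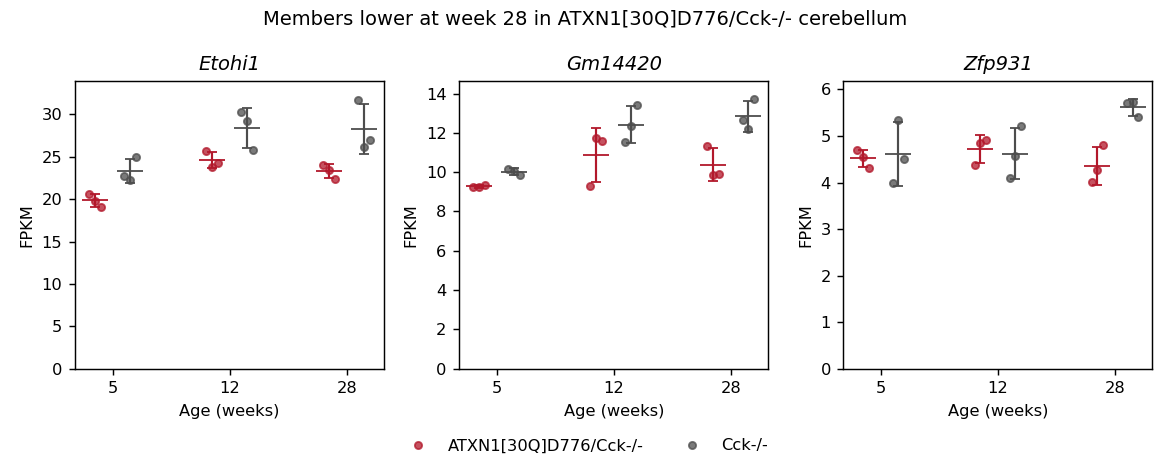
FPKM of Etohi1, Gm14420 and Zfp931 (vertical axes, from 0) in each library by age in weeks, with ATXN1[30Q]D776/Cck-/- libraries in red on the left and Cck-/- libraries in grey on the right of each age; lines are the mean and SD of 3 libraries. At week 28 the transgenic libraries lie below all Cck-/- libraries in each panel, as for Zfp931 with 4.01 to 4.80 FPKM in transgenic and 5.41 to 5.73 FPKM in Cck-/- libraries.

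The 4 members that were lower at week 5 were nearer to their Cck-/- levels at week 28. Gm14305 read 10.1, 9.60 and 9.56 FPKM in transgenic libraries, against 11.04, 9.78 and 10.1 FPKM in Cck-/- libraries, which overlapped. For Gm14436, Gm14306 and Gm14295 the groups did not overlap. Gm14436 read 11.9, 12.8 and 10.7 FPKM in transgenic libraries, against 13.3, 13.0 and 13.2 FPKM in Cck-/- libraries (limma, adjusted p = 0.095). Gm14306 read 1.93, 2.21 and 2.17 FPKM in transgenic libraries, against 2.85, 2.52 and 2.29 FPKM in Cck-/- libraries (limma, adjusted p = 0.20). Gm14295 read 91.2, 88.4 and 85.4 FPKM in transgenic libraries, against 132, 98.5 and 97.7 FPKM in Cck-/- libraries, where 1 Cck-/- library was far above the other 2, and its log2 fold change of -0.29 did not pass (limma, adjusted p = 0.067). The difference between the genotype effects of weeks 28 and 5 passed for Gm14436 (0.64 ± 0.08, SE; limma, adjusted p = 0.00079), Gm14305 (0.61 ± 0.09, adjusted p = 0.0022) and Gm14306 (0.61 ± 0.13, adjusted p = 0.025), 3 of 14 members against 1.73% of all tested genes called higher. For Gm14295 it was 0.36 ± 0.14 and did not pass (adjusted p = 0.16). Gm14306 lost this call without Cck-/- week 5 replicate 2 or 3, Cck-/- week 28 replicate 2 or 3, transgenic week 5 replicate 2 or transgenic week 28 replicate 2 (adjusted p 0.0513 to 0.0639). Between weeks 28 and 12, the genotype effects differed for 0 of 14 members, against 0% of all 13487 genes in limma, and 1 member had an unadjusted p under 0.05. Because Zfp931, Etohi1 and Gm14420 did not pass any of these tests between ages, their effects at week 28 are not shown to differ from those at weeks 5 and 12.

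Averaged over the 3 ages, 7 of 14 members were lower in transgenic cerebellum, against 8.00% of all tested genes called lower, and none was higher. They were Gm14436 (-0.39 ± 0.03, SE; limma, adjusted p = 9.3e-07), Gm14295 (-0.39 ± 0.06, adjusted p = 0.00022), Gm14306 (-0.37 ± 0.05, adjusted p = 0.00022), Gm14305 (-0.27 ± 0.03, adjusted p = 7.9e-05), Gm14393 (-0.27 ± 0.08, adjusted p = 0.034), Etohi1 (-0.23 ± 0.04, adjusted p = 0.0015) and Gm14420 (-0.19 ± 0.04, adjusted p = 0.0094). In the flank below, 1 of 14 tested genes was lower on average, Slmo2 (-0.09 ± 0.03, adjusted p = 0.044), and 2 were higher, Ctsz and Rae1, against 6.82% of all tested genes called higher, while in the flank above 0 of 11 changed. For Gm14436, Gm14305 and Gm14306 the average stands over effects that differed between ages. Etohi1 read 0.852, 0.864 and 0.825 times its Cck-/- mean at weeks 5, 12 and 28. Its transgenic libraries lay below all Cck-/- libraries at each of the 3 ages. Only Etohi1 and Gm14436 of the 14 members did so, against 2.45% of all tested genes. Gm14420 lost its call without the 3 libraries low in choroid plexus genes (adjusted p = 0.073). Gm14393, with 3 zinc finger matches, lost its call on leaving out any 1 of 9 libraries (adjusted p 0.0502 to 0.0724): Cck-/- week 5 replicate 1 or 2, week 12 replicate 3 or week 28 replicate 3, or transgenic week 5 replicate 2 or 3, week 12 replicate 2 or 3 or week 28 replicate 1.

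The largest change with age among the tested members was in another gene. Gm14326, a gene with 15 zinc finger matches, read 8.18, 7.94 and 7.31 FPKM at week 5, 11.1, 9.58 and 10.1 FPKM at week 12 and 32.6, 29.2 and 26.2 FPKM at week 28 in transgenic libraries. In Cck-/- libraries it read 8.38, 7.93 and 8.35 FPKM at week 5, 10.5, 9.79 and 10.1 FPKM at week 12 and 29.3, 27.0 and 27.9 FPKM at week 28. In both genotypes, every week 28 value was at least 26.2 FPKM and every earlier one at most 11.1 FPKM. From week 12 to week 28 it rose by 1.43 ± 0.07 in transgenic cerebellum (SE; limma, adjusted p = 2.4e-09), which is 2.87-fold in mean FPKM, and by 1.38 ± 0.07 in Cck-/- cerebellum (adjusted p = 4.5e-09), which is 2.77-fold. The difference between those 2 rises was 0.05 ± 0.10 and did not pass (adjusted p = 0.88). Both rises passed under every alternative tried.

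Gm14325, which shares much of its transcript sequence with Gm14326, rose less. Gm14327, which lies between them in the table, had log2 fold changes of 0.12 in transgenic and 0.08 in Cck-/- cerebellum from week 12 to week 28 and did not pass (limma, adjusted p = 0.60 and 0.78). Gm14325 read 14.4, 13.9 and 15.4 FPKM at week 28, against 12.3, 12.2 and 12.7 FPKM at week 12, in transgenic libraries. In Cck-/- libraries it read 15.4, 14.9 and 14.8 FPKM at week 28, against 12.1, 11.9 and 12.3 FPKM at week 12. The ages did not overlap in either genotype, with log2 fold changes of 0.22 ± 0.04 (SE; limma, adjusted p = 0.0019) in transgenic and 0.30 ± 0.04 (adjusted p = 0.0005) in Cck-/- cerebellum. Since 70.4% of its 50-base stretches are also in Gm14326, the 2 genes can share reads, and the part of this in its rise was not tested. Gm14305 rose by 0.20 ± 0.06 in transgenic (adjusted p = 0.025) and 0.22 ± 0.06 in Cck-/- cerebellum (adjusted p = 0.037). The call in transgenic cerebellum was lost without transgenic week 12 replicate 2 or 3 or week 28 replicate 1 or 2 (adjusted p 0.0576 to 0.11). The call in Cck-/- cerebellum was lost without any week 12 replicate or without week 28 replicate 1 or 3 (0.059 to 0.113).

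These were all the members called between weeks 28 and 12: 3 of 14 in transgenic cerebellum, against 10.2% of all tested genes called higher, and 3 of 14 in Cck-/- cerebellum, against 4.03%. No member fell. The median log2 fold changes of the 14 were 0.01 and 0.05, so that Gm14326 stood alone among them in size. Microglia markers were 73.18 to 105.4 FPKM in transgenic libraries of week 28, against 40.64 to 65.84 FPKM in those of week 12, and 45.77 to 70 FPKM in Cck-/- libraries of week 28, against 37.94 to 44.08 FPKM in those of week 12. Purkinje cell markers were 979.6 to 1922 FPKM at week 28, against 2023 to 2390 FPKM at week 12, in transgenic libraries. Granule cell markers were 824 to 875.2 FPKM at week 28, against 967.6 to 1158 FPKM at week 12, in transgenic libraries. Choroid plexus markers were 1193 to 2679 FPKM at week 28, against 631.6 to 1179 FPKM at week 12, in Cck-/- libraries. The part of these markers in the rises was not tested.

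**Figure D5:**
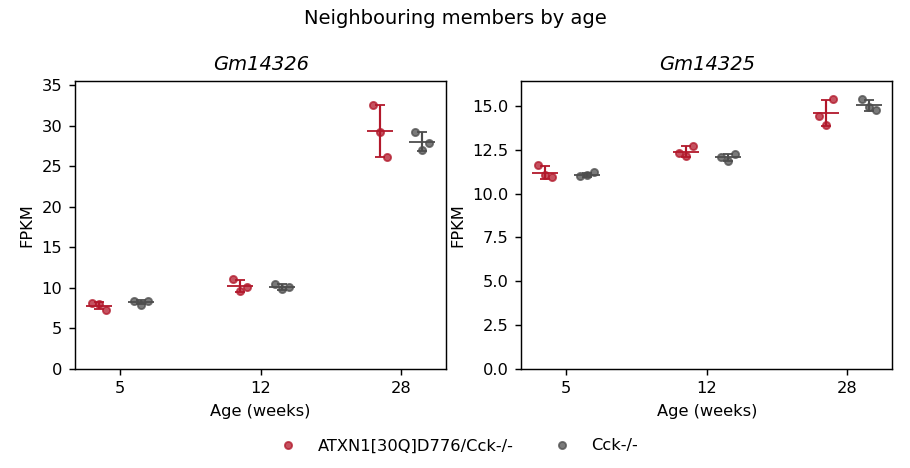
FPKM of Gm14326 and Gm14325 (vertical axes, from 0) in each library by age in weeks, with ATXN1[30Q]D776/Cck-/- libraries in red on the left and Cck-/- libraries in grey on the right of each age; lines are the mean and SD of 3 libraries. Gm14326 lies between 26.2 and 32.6 FPKM at week 28 in both genotypes, and Gm14325 between 13.9 and 15.4 FPKM.

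Gm14322 and Gm14403 passed in no comparison. Gm14322 ranged from 5.80 to 11.1 FPKM. Gm14403, which RefSeq but not GENCODE lists as noncoding, ranged from 2.10 to 3.67 FPKM. The 2 genotypes overlapped at every age except for Gm14403 at week 28 (3.00, 2.59 and 2.74 FPKM in transgenic libraries, against 3.08, 3.05 and 3.64 FPKM in Cck-/- libraries), and replicates of 1 group spread widely, as for Gm14322 at 6.26, 5.80 and 7.89 FPKM in transgenic libraries of week 5. Gm14327 also passed in none, and read 5.43, 7.64 and 9.81 FPKM in Cck-/- libraries of week 28, the widest range of that gene in any group.

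Because reads can be shared out differently among near copies, the members were also summed. This lessens the problem without removing it. Each matched member shares 50-base stretches with 42 to 62 genes inside the cluster's borders, and only the 21 members are in the sum. FPKM is also scaled to transcript length, which differs between members. The sum was 139 ± 4.11 FPKM in transgenic libraries of week 5 (SD, n = 3), against 190.1 ± 5.56 FPKM in Cck-/- libraries. At week 12 it was 202.6 ± 6.33 FPKM in transgenic and 227.2 ± 8.99 FPKM in Cck-/- libraries, and at week 28 it was 216.7 ± 8.67 FPKM in transgenic and 249.7 ± 22.4 FPKM in Cck-/- libraries. The groups did not overlap at any of the 3 ages, and the smallest margin was at week 28, where the highest transgenic library stood at 226.2 FPKM and the lowest Cck-/- library at 233.2 FPKM. Gm14295 alone made up 40.3% to 50.5% of the sum. Without it, the sum was 80.6 ± 2.67 FPKM in transgenic and 97.8 ± 1.40 FPKM in Cck-/- libraries of week 5, again without overlap, while at week 28 the ranges met (123.8 to 135.02 FPKM in transgenic and 134.63 to 143.3 FPKM in Cck-/- libraries).

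Among partners of KRAB zinc finger proteins, 36 of 37 listed genes were in the table and 32 were tested. At week 5, 3 of the 32 were lower in transgenic cerebellum, against 4.37% of all tested genes, and none was higher. They were the DNA methyltransferase Dnmt3a (-0.43 ± 0.10, SE; limma, adjusted p = 0.014), the histone deacetylase Hdac2 (-0.13 ± 0.03, adjusted p = 0.026) and H3f3a, which encodes histone H3.3 (-0.16 ± 0.05, adjusted p = 0.043). The median of the list was -0.04. At weeks 12 and 28, 0 of 32 passed, against 1.36% and 10.7% of all tested genes called in either direction. Averaged over ages 2 of 32 were lower, Dnmt3a (-0.17, adjusted p = 0.048) and Pphln1 (-0.06, adjusted p = 0.033), a smaller share than the 8.00% of all tested genes. The genotype effect of Kdm1a, a histone demethylase, differed between weeks 28 and 5 (0.22 ± 0.06, adjusted p = 0.047). With age, 0 of the 32 changed between weeks 12 and 5 in transgenic cerebellum, against 1.19% of all tested genes, and 4 were lower in Cck-/- cerebellum, against 6.53%. Between weeks 28 and 12, 3 were higher and 2 lower in transgenic cerebellum, against 10.2% of all tested genes higher and 13.7% lower, and 1 was higher and 2 lower in Cck-/- cerebellum, against 4.03% higher and 5.62% lower. Neither Trim28 nor Setdb1 passed in any comparison.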

How the data were processed

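The authors deposited 1 table of FPKM values per gene symbol for all 18 libraries, made with TopHat2 2.0.11 and Cufflinks 2.2.1 on mm10, per the submitters' processing notes. For the annotation, the read filters and the sharing out of reads that fit several genes, the sources used here give nothing. The bound columns beside the FPKM were equal to each other in every row and were not used, no member value had a failed status, and all value columns belonged to labelled libraries. Absolute depth is unknown, so no counting intervals are given.

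From these values log2(FPKM + 1) was computed, and the 13487 genes with at least 1 FPKM in at least 3 libraries were fitted in limma 3.58.1 (R 4.3.3) by 6 group means, allowing the variance to follow the mean level, with 12 residual degrees of freedom. The 11 comparisons were two-sided, with p adjusted by Benjamini and Hochberg over all tested genes, with a call at an adjusted p under 0.05. The fit was tested on simulated data. Pseudocounts of 0.1 and 0.5, no filter, median-ratio and quantile normalization, a replicate block, fits of the compared groups alone and leaving out each library were alternatives. Leaving out libraries low in choroid plexus genes, or with both Xist and Y-linked transcripts, was added after the data were seen. The cluster genes, the comparison windows and the gene lists were chosen with earlier results of these data known. Named are Gm14306, Gm14295, the 12 most abundant members, called members, members without overlap at all 3 ages and the 3 nearest genes on each side, and some others were named after their values were seen.

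Sequences and positions came from RefSeq (GRCm38.p6) and GENCODE M21, of the same build as the table. Promoters were aligned globally with Biopython 1.88, 50-base stretches were compared between transcripts, and no genome or protein sequences were used.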

Additional observations from a re-analysis of the deposited data

Results flagged for a closer look

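For 3 members the genotype effect differed between ages, by the interaction test of limma. Between weeks 12 and 5 the difference in log2 fold change was 0.692 for Gm14306, 0.563 for Gm14436 and 0.626 for Gm14305. Between weeks 28 and 5 it was 0.608 for Gm14306, 0.642 for Gm14436 and 0.613 for Gm14305. Both sets of differences rest on the same 6 libraries of week 5, and Gm14306 and Gm14436 are names of 1 RefSeq gene.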

How the results depend on the processing

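Counts of called members at week 5 were 4 without any 1 library. Leaving out 1 library at a time gave 0 to 1 at week 12, 1 to 2 at week 28, 6 to 7 for the average over ages, 2 to 3 for the difference between weeks 12 and 5, 2 to 4 for that between weeks 28 and 5 and 0 to 0 for that between weeks 28 and 12. For age it gave 5 to 6 (weeks 12 and 5) and 2 to 4 (weeks 28 and 12) in transgenic, and 0 to 3 and 2 to 3 in Cck-/- cerebellum. At week 12 the count was 1 without the libraries low in choroid plexus genes. At week 28 it was 0 with the compared groups only, 1 without those low in choroid plexus transcripts and 1 without those with both Xist and Y-linked transcripts. In transgenic cerebellum between weeks 12 and 5 it was 3 without the libraries low in choroid plexus genes. Each of these fits also held fewer libraries, and the cause of the shifts was not tested.

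With the replicate number as a block, 4 members were called at week 5, 0 at week 12, 4 at week 28 and 7 on average, and no count moved by more than 1.5 times. Correlations between libraries of the same number and age ran from -0.16 to 0.435. Libraries of unlike number were not set beside them, so whether the numbers pair the libraries is not settled. A fit of the compared groups only could not be had for the average, which uses all groups. Of 37 gene and comparison pairs called, 19 held under every setting tried and none changed sign. Relative depth differed between libraries (0.798 to 1.65), and the 7 untested members are too low for any comparison.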
